A study of Homo sapiens with 12 samples.

Results

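ALG8 and 9 other genes that assemble the N-glycan precursor or attach it to proteins were followed in sorted gastric cancer cells. These 10 genes were among 34595 genes with a measured value. ALG8 was chosen by its signal-to-noise ratio between CD133+ and CD133- cells in these same arrays, so every value of ALG8 below is a description with no test. DPAGT1, ALG1, ALG2, ALG3, ALG5, ALG6, ALG9, STT3A and STT3B were chosen for their place in the same pathway, with earlier results of these data known. CD133, the protein made by PROM1, is a cell surface glycoprotein widely used to sort candidate cancer stem cells. The study asked which transcripts differ between cells with and without it. RNA of 3 established gastric cancer cell lines, KATO-III, SNU-216 and SNU-601, was hybridised to Illumina HT-12 v3 BeadChip arrays. Before this, flow cytometry with an antibody to CD133 sorted a CD133+ and a CD133- fraction from each line. The study collected the brightest cells by fluorescence as CD133+ and the dimmest as CD133-, so the 2 fractions are not the whole line. Each of the 6 populations had 2 arrays, 12 in all, so each fraction had 6 arrays. The series' design text gives another name for the line that the array labels call SNU-216, and the labels were followed. Nothing in the sources says whether the 2 arrays of a population came from separate sorts. P-values other than those over all lines thus measure only the spread between these arrays, which may be technical. Those over all lines count the 2 arrays of a population as separate and also take in unequal fraction differences among the lines. Each line is 1 culture model, and differences between lines are differences between these 3 lines alone.

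N-glycosylation begins on a lipid. In the membrane of the endoplasmic reticulum, sugars are added in a fixed order to dolichol phosphate, first from nucleotide sugars on the cytosolic face and then, after the chain is flipped, from dolichol-linked sugars on the luminal face. The last sugars added are glucoses, which mark the chain as complete, and the oligosaccharyltransferase then moves the chain to asparagine residues of growing proteins. Inherited defects of these genes cause congenital disorders of glycosylation, and many surface proteins of epithelial cells, CD133 included, carry the product.

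The sorting was visible in its own gene. PROM1 intensity was 2.15 times higher in the CD133+ than in the CD133- arrays of KATO-III, 4.05 times in SNU-216 and 3.62 times in SNU-601, with a log2 difference over all lines of 1.66 (SE 0.127, limma adjusted p = 0.00066). Between 16320 and 16474 genes lay above the intensity floor of 32.7 on an array, and all 10 pathway genes did so on all 12 arrays. All 12 arrays had the 5 epithelial markers examined above the floor, whereas 10 of 15 leukocyte, fibroblast and endothelial markers exceeded it on fewer than 2. PTPRC, CD3E, COL3A1, DCN and all 5 endothelial markers were above it on none. The summed leukocyte markers ranged from 262 to 1282 in CD133+ arrays and from 485 to 1711 in CD133- arrays, and the summed fibroblast markers from 97.7 to 201 and from 24.1 to 830.2, with values below 0 taken as 0. CD68, a lysosomal protein of macrophages that other cells also express, was lower in CD133+ arrays over all lines (log2 difference -0.98, SE 0.143, adjusted p = 0.00868). LUM, which encodes the matrix proteoglycan lumican, was lower in CD133+ arrays of KATO-III (-3.31, SE 0.163, adjusted p = 1.73e-06) and higher in those of SNU-216 (0.90, SE 0.163, adjusted p = 0.00323). COL1A1, a fibrillar collagen chain, was higher in CD133+ arrays of KATO-III (0.84, SE 0.203, adjusted p = 0.00977), and CD14, a monocyte receptor, was lower there (-0.53, SE 0.116, adjusted p = 0.00609). The epithelial adhesion protein gene CDH1 was lower in CD133+ arrays of KATO-III (-0.70, SE 0.0688, adjusted p = 6.83e-05) and SNU-601 (-0.25, adjusted p = 0.0362) and higher in those of SNU-216 (0.30, adjusted p = 0.0109). The part of these markers in the differences below was not tested.

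Promoter sequence was available for 9 of the 10 genes, all but STT3B, from RefSeq on build GRCh38.p14. Those of ALG8, ALG6 and DPAGT1 are shown for their patterns across the lines described below. ALG8, selected on its fraction difference, was higher in CD133+ cells of every line, ALG6 in KATO-III and SNU-216, and DPAGT1 only in SNU-601. Each stretch holds the 250 bases before the gene's start, 5′ to 3′ on the gene's strand, and capitals mark a GC box, the letters GGGCGG on either strand. The ALG8 stretch lies at chr11:78139627-78139876 on the minus strand, the ALG6 stretch at chr1:63367377-63367626 on the plus strand and the DPAGT1 stretch at chr11:119101854-119102103 on the minus strand.
ALG8: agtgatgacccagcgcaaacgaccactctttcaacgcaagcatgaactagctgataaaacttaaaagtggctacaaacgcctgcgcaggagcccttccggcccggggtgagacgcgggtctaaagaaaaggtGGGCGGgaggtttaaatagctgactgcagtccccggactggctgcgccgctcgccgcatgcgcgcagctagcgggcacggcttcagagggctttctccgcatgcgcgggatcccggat
ALG6: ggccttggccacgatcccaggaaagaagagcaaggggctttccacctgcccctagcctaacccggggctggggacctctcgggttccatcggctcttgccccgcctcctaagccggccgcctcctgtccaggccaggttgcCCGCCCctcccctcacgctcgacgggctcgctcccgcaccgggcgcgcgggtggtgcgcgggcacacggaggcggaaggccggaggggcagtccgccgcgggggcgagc
DPAGT1: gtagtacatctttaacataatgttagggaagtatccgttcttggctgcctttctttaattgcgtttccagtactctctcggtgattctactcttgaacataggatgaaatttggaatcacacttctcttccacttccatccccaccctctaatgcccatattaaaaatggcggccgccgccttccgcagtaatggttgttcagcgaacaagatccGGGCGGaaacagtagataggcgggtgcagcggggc
A GC box was found in the longer windows, from 250 bases before to 50 after the start, of 6 of the 9 genes (DPAGT1, ALG2, ALG9, ALG6, ALG8 and ALG5), and in 44.6% of 27305 promoters of that length. A CCAAT box, the letters CCAAT on either strand, was found for ALG1, ALG2, ALG5 and STT3A and in 35.7% of all promoters. The NRF1 motif, GCGC and TGCGC with any base between, on either strand, was found for ALG6 alone, outside the stretch shown, and in 6.28% of all promoters. The ER stress response element, CCAAT and CCACG with 9 bases between, which contains a CCAAT box, was found for none of the 9 and in 0.0806% of all promoters. These matches describe letters only.

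ALG8 adds the second glucose to the lipid-linked chain. Its intensity was higher in CD133+ than in CD133- arrays of every line, with no overlap between the 6 arrays of each fraction. In KATO-III the CD133+ arrays read 2929 and 2987 and the CD133- arrays 2385 and 2594. In SNU-216 they read 3640.0 and 3588 against 2339.7 and 2472, and in SNU-601 2899 and 3024 against 2412 and 2439.8. The lowest CD133+ array, in SNU-601, thus stood above the highest CD133- array, in KATO-III. The ratio of mean intensities was 1.19 in KATO-III, 1.50 in SNU-216 and 1.22 in SNU-601, and the log2 difference over all lines was 0.37 (SE 0.0639). Within lines the log2 difference was 0.25 in KATO-III, 0.59 in SNU-216 and 0.29 in SNU-601 (SE 0.0506 in each). The SD of ALG8 between arrays of a population, pooled over the populations, was 0.0467. The KATO-III difference was 0.19 without CD133- replicate 1 of that line and 0.31 without CD133- replicate 2. These arrays measure bulk RNA, so fewer cells that express a gene and less RNA per cell cannot be told apart.

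The order of the ALG8 means also shows where the lines parted. SNU-216 CD133+ was the highest population, with a mean of 3614 ± 36.6 (SD, n = 2). SNU-601 CD133+ (2961 ± 88.7) and KATO-III CD133+ (2958 ± 41.0) followed, and their arrays overlapped. The 3 CD133- populations came last, at 2489.5 ± 147 in KATO-III, 2426 ± 19.3 in SNU-601 and 2406 ± 93.7 in SNU-216, each overlapping its neighbour. The CD133- arrays of the 3 lines thus overlapped, while the CD133+ arrays of SNU-216 stood above those of KATO-III and SNU-601.

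The signal-to-noise ratio, the difference of the 2 fraction means over the sum of their SDs on linear intensities, was 1.72 for ALG8, which ranked 11 among 34595 genes and was selected on it. A ratio above 1 was held by 193 of these genes, 0.558%. None of the other 9 genes passed 1. STT3B was nearest below the threshold at 0.82, rank 483, followed by ALG5 at 0.47 and ALG6 at 0.40, and the remaining 6 lay between -0.21 and 0.29. Without either SNU-601 CD133- array the ratio of STT3B was 1.08 or 1.01. All 6 CD133+ arrays lay above all 6 CD133- arrays in 0.352% of the 20147 genes tested and below them in 0.169%, and ALG8 was the 1 gene of the 10 with either pattern.

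**Figure D1:**
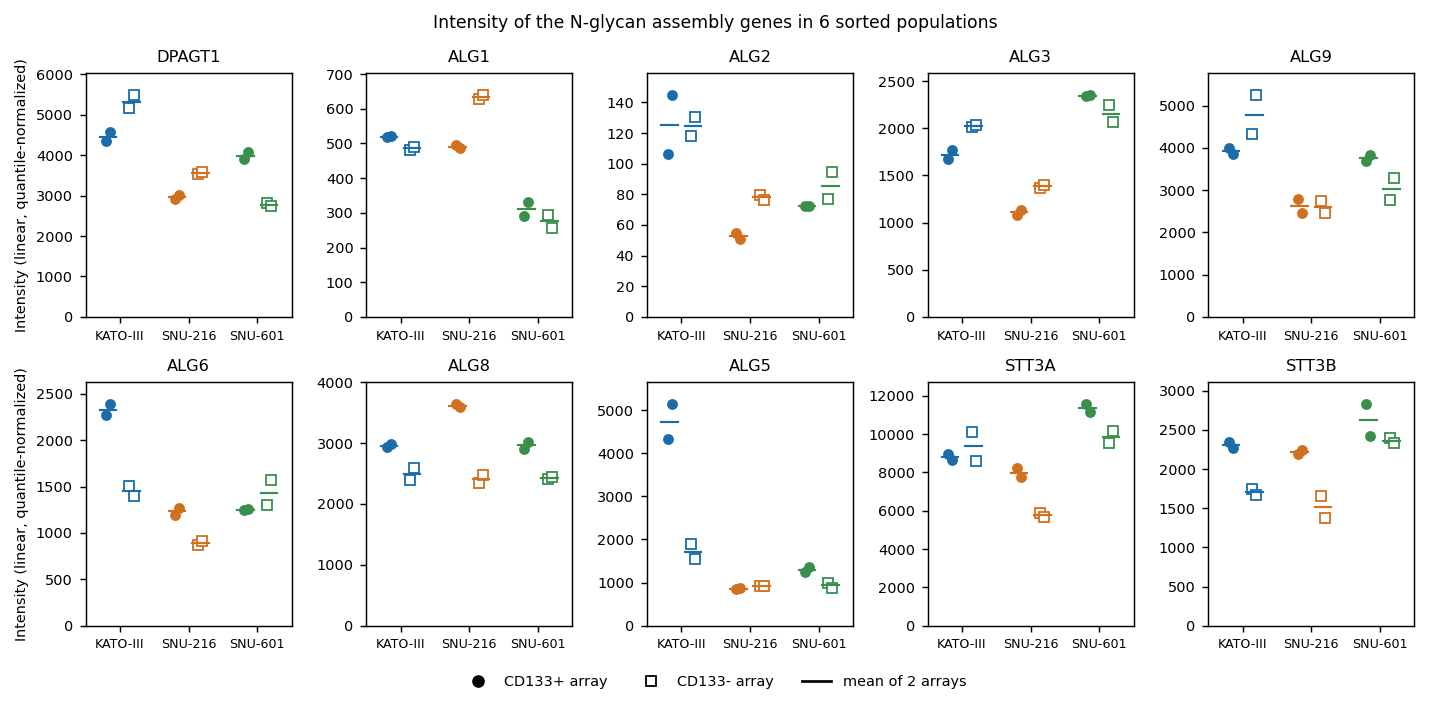
Quantile-normalized linear intensity (vertical axes, each from 0 and scaled to its gene) of the 10 genes in the 3 lines (horizontal axes). Filled circles are CD133+ arrays, open squares CD133- arrays and short lines the mean of 2 arrays. The ALG8 CD133+ arrays sit between 2899 and 3640.0, all above its CD133- arrays, whereas DPAGT1 is lower in CD133+ cells of KATO-III and SNU-216 and higher in those of SNU-601.

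On the cytosolic face, DPAGT1 starts the chain by attaching N-acetylglucosamine phosphate to dolichol phosphate, the committed step that tunicamycin blocks. DPAGT1 was lower in CD133+ cells of KATO-III and SNU-216 and higher in those of SNU-601. Its CD133+ arrays read 4336 and 4573 in KATO-III against 5158 and 5476 in CD133- arrays, and 2918 and 3004 against 3539 and 3578 in SNU-216. In SNU-601 the order turned, with 3893 and 4084.5 in CD133+ against 2814 and 2738 in CD133- arrays. The fractions did not overlap within any line. The log2 difference was -0.26 in KATO-III (SE 0.0476, adjusted p = 0.00258), -0.27 in SNU-216 (adjusted p = 0.0031) and 0.52 in SNU-601 (adjusted p = 0.00036), and the 3 differed from each other (limma interaction F-test, adjusted p = 4.88e-05). Over all lines the difference was 0.00 (SE 0.117, adjusted p = 0.998).

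ALG1, which adds the first mannose, and ALG2, which adds the mannoses after it, were called in SNU-216 alone, where both were lower in CD133+ cells. ALG1 read 494 and 488 in CD133+ against 627 and 639 in CD133- arrays of SNU-216, a log2 difference of -0.37 (SE 0.0863, adjusted p = 0.0122). In KATO-III its difference was 0.10 (adjusted p = 0.431) and in SNU-601 0.18 (adjusted p = 0.22), and the interaction passed the threshold (adjusted p = 0.0112). The ALG1 call in SNU-216 rested on each of 3 arrays, since without CD133+ replicate 1, CD133+ replicate 2 or CD133- replicate 2 its adjusted p was 0.0504, 0.0575 or 0.0594. ALG2 was dim, between 51.2 and 145 on all 12 arrays. Its SNU-216 arrays read 54.8 and 51.2 in CD133+ against 79.8 and 76.2 in CD133- cells (log2 difference -0.56, SE 0.172, adjusted p = 0.0396). That call was lost without any 1 of the 4 SNU-216 arrays (adjusted p from 0.0938 to 0.149) and also without KATO-III CD133- replicate 1 or 2 or SNU-601 CD133+ replicate 1 or 2 (0.053 to 0.0555). It was lost too with a floor of 16 (0.0751), with a floor of 100, to which all 4 SNU-216 arrays were raised, with an offset of 100 (0.16), among genes above the floor on all 12 arrays (0.0589) and with no filter (0.103). ALG2 did not pass over all lines (-0.27, SE 0.128, adjusted p = 0.223), and its interaction p was 0.213, or 0.0485 without KATO-III CD133+ replicate 1.

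On the luminal face ALG3 adds the first mannose taken from dolichol phosphate mannose and ALG9 adds later ones. ALG3 was lower in CD133+ cells of KATO-III, where its arrays read 1671 and 1768 against 2008 and 2029, and of SNU-216, where they read 1084 and 1134 against 1371 and 1399.9. The log2 differences were -0.23 (SE 0.0515, adjusted p = 0.00653) and -0.32 (adjusted p = 0.00175). In SNU-601 ALG3 read 2338 and 2348 against 2242 and 2070.1, a difference of 0.12 that did not pass (adjusted p = 0.16), and the 3 lines differed (interaction adjusted p = 0.00245). DPAGT1 and ALG3 thus had the same 2 lines with lower values in CD133+ cells. ALG9 was not called in any line, at -0.28 in KATO-III (SE 0.111, adjusted p = 0.0789), 0.01 in SNU-216 (adjusted p = 1.0) and 0.31 in SNU-601 (adjusted p = 0.0951), although its interaction passed (adjusted p = 0.0357). Without KATO-III CD133- replicate 1 the KATO-III difference of ALG9 passed (-0.42, adjusted p = 0.0325), and without CD133- replicate 2 it was -0.14 (adjusted p = 0.448). The interaction of ALG9 was lost without any 1 of 9 arrays, all except KATO-III CD133- replicate 1, SNU-216 CD133+ replicate 1 and SNU-601 CD133- replicate 2, with adjusted p from 0.0506 to 0.126, and also with no filter on dim genes (0.127) and without the mean-variance trend (0.0631). With an offset of 100 in place of the floor, or among genes above the floor on all 12 arrays, ALG9 was called lower in KATO-III (0.0338 and 0.0315) and higher in SNU-601 (0.0439 and 0.0354).

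Glucose is added next, by ALG6 for the first residue and ALG8 for the second, both from dolichol phosphate glucose, which ALG5 makes from UDP-glucose. ALG6 rose in CD133+ cells of KATO-III and SNU-216, as its arrays show. It read 2269.9 and 2390.2 in CD133+ against 1509.8 and 1398 in CD133- arrays of KATO-III, and 1192 and 1275 against 870.0 and 919 in SNU-216. In SNU-601 it read 1246 and 1255 against 1298 and 1570.2, the CD133+ arrays lying below. The log2 difference of ALG6 was 0.68 in KATO-III (SE 0.0869, adjusted p = 0.000296), 0.46 in SNU-216 (adjusted p = 0.00391) and -0.19 in SNU-601 (adjusted p = 0.188, or -0.33 with adjusted p = 0.0306 without SNU-601 CD133- replicate 1, and -0.05 with adjusted p = 0.767 without CD133- replicate 2). These 3 differences were unequal (interaction adjusted p = 0.00114), and over all lines ALG6 did not pass (0.32, SE 0.127, adjusted p = 0.159).

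ALG5 had the biggest fraction difference of the 10 genes, and it lay in KATO-III. There its CD133+ arrays read 4328 and 5142 against 1890.4 and 1536 in CD133- arrays, a ratio of means of 2.76 and a log2 difference of 1.47 (SE 0.114, adjusted p = 1.81e-05). In SNU-601 it read 1236 and 1361 against 998 and 884, a difference of 0.47 (adjusted p = 0.0243). In SNU-216 it read 854 and 871 against 919.6 and 913, a difference of -0.09 (adjusted p = 0.68). The interaction passed (adjusted p = 0.000248), and the difference over all lines did not (0.62, SE 0.204, adjusted p = 0.101). The SNU-601 call of ALG5 was lost without CD133+ replicate 1, CD133+ replicate 2 or CD133- replicate 2 of that line (adjusted p 0.0579, 0.134 and 0.144). The donor enzyme ALG5 was thus called higher in KATO-III and SNU-601, and ALG6, a glucosyltransferase that uses its product, in KATO-III and SNU-216. Whether these 2 genes differ in their pattern over the lines was not tested. ALG8 was higher in all 3 lines, but it was selected on its fraction difference and is not set against them.

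STT3A and STT3B are the alternative catalytic subunits of the oligosaccharyltransferase, the former acting mainly as a protein enters the endoplasmic reticulum and the latter on sites passed over or reached later. STT3B was the 1 gene of the 9 other than ALG8 called over all lines. It read 2341 and 2269.9 in CD133+ against 1751 and 1671 in CD133- arrays of KATO-III, and 2194 and 2247 against 1657 and 1377 in SNU-216. In SNU-601 it read 2829 and 2428 against 2390.2 and 2328, so the CD133+ arrays were the higher ones in every line, with the narrowest gap in SNU-601. The log2 difference was 0.38 over all lines (SE 0.0795, adjusted p = 0.0285), 0.43 in KATO-III (SE 0.0925, adjusted p = 0.00554), 0.56 in SNU-216 (adjusted p = 0.0021) and 0.15 in SNU-601 (adjusted p = 0.34). A difference between lines was not called (interaction adjusted p = 0.0741), but it passed without SNU-216 CD133- replicate 1 or SNU-601 CD133+ replicate 1. The interaction also passed with an offset of 100 in place of the floor (0.0409) and among genes above the floor on all 12 arrays (0.0329).

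The STT3B call over all lines was a narrow one. It was lost without any 1 of the 4 KATO-III arrays (adjusted p from 0.0655 to 0.0733) and without SNU-216 CD133+ replicate 1 or 2 (0.0595 and 0.056), and also where the population was a random block (0.262) or the 2 arrays were averaged (0.796). The log2 difference of STT3B itself lay between 0.32 and 0.44 without each array in turn. Calls over all genes tested also fell in each of the fits in which STT3B lost its call. They went from 953 over all lines to 1 with the random block and to 0 with averaged arrays. STT3A was higher in CD133+ cells of SNU-216, where it read 8222 and 7744 against 5855 and 5664 (log2 difference 0.47, SE 0.0751, adjusted p = 0.00169). In SNU-601 it was 0.21 (adjusted p = 0.1), or past the threshold without KATO-III CD133- replicate 1 or 2 (0.0319 and 0.032), and in KATO-III -0.08 (adjusted p = 0.467). The KATO-III difference of STT3A rested on its CD133- arrays, at 10131 and 8574: without replicate 2 it was -0.20 (adjusted p = 0.0421) and without replicate 1 it was 0.04 (adjusted p = 0.719). The interaction of STT3A passed (adjusted p = 0.00762).

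**Figure D2:**
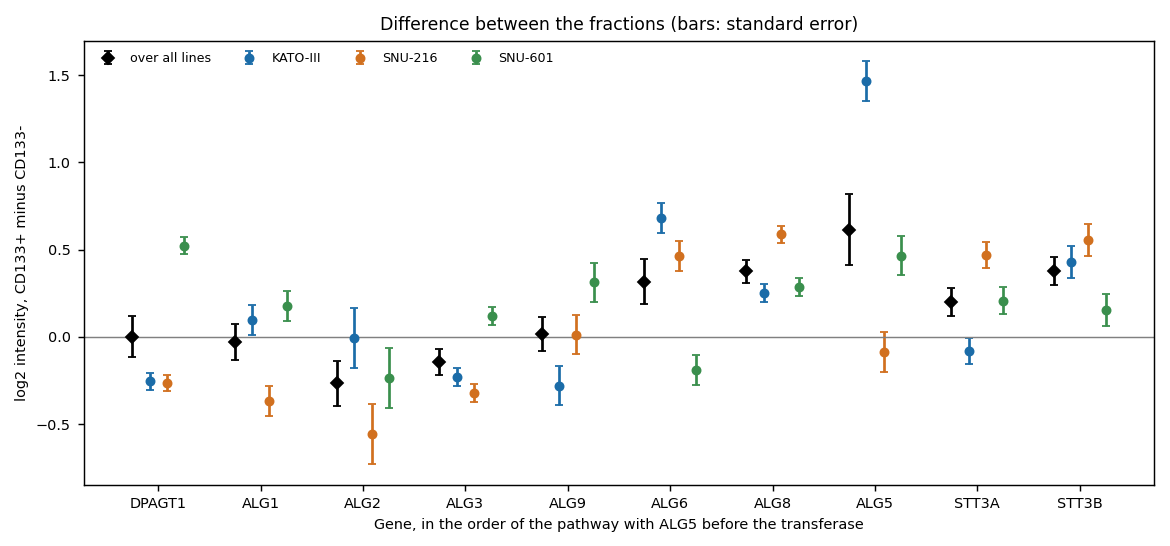
log2 intensity of CD133+ minus CD133- cells (vertical axis) for each of the 10 genes (horizontal axis), over all lines (black diamonds) and within each line (coloured circles), with bars of 1 standard error. The ALG8 points lie between 0.25 and 0.59, while DPAGT1 goes from -0.27 to 0.52 and ALG5 reaches 1.47 in KATO-III.

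Counted together, the 9 genes other than ALG8 showed few shared directions. Over all lines 1 was higher in CD133+ cells and none lower, where 2.62% of all genes tested were called higher and 2.11% lower. The differences over all lines not given above were -0.03 for ALG1 (adjusted p = 0.88), -0.14 for ALG3 (0.255), 0.02 for ALG9 (0.935) and 0.20 for STT3A (0.169). In KATO-III 3 were higher (ALG5, ALG6 and STT3B) and 2 lower (DPAGT1 and ALG3), with 18.7% and 20.6% of all genes called. In SNU-216 3 were higher (ALG6, STT3A and STT3B) and 4 lower (DPAGT1, ALG1, ALG2 and ALG3), with 14.6% and 14.0% of all genes. In SNU-601 2 were higher (DPAGT1 and ALG5) and none lower, with 8.59% and 7.78% of all genes. The median log2 difference of the 9 genes was 0.02 over all lines, -0.01 in KATO-III, -0.09 in SNU-216 and 0.18 in SNU-601, beside medians of all genes tested of -0.01, 0.00, 0.00 and 0.00. The fraction difference varied with the line (interaction) in 7 of the 9 genes, all but ALG2 and STT3B, and in 44.4% of all genes tested.

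The lines themselves differed in all 9 of these genes (limma F-test over the lines with fractions averaged, adjusted p from 6.08e-08 for ALG3 to 0.000503 for STT3B), as they did in 72.3% of all genes tested. KATO-III had the highest DPAGT1, with a log2 difference from it of -0.58 in SNU-216 (SE 0.0336, adjusted p = 2.86e-07) and of -0.55 in SNU-601 (adjusted p = 6e-07). With the fractions averaged, SNU-216 and SNU-601 did not differ beyond their spread in DPAGT1 (0.04, adjusted p = 0.422), but within the fractions they differed in opposite directions. The SNU-601 mean was above that of SNU-216 in CD133+ cells (3989 against 2961) and below it in CD133- cells (2776 against 3559), with no overlap of arrays. ALG5 was also highest in KATO-III, by the largest margin of the set, at -1.67 for SNU-216 (SE 0.0803) and -1.36 for SNU-601 against it. With the fractions averaged, ALG6 and ALG9 followed the same order of lines, KATO-III, then SNU-601, then SNU-216. The ALG6 arrays of KATO-III and SNU-601 overlapped in CD133- cells, and those of SNU-601 and SNU-216 in CD133+ cells. For ALG6 the differences from KATO-III were -0.81 for SNU-216 (SE 0.0615) and -0.46 for SNU-601, and for ALG9 -0.73 (SE 0.0785) and -0.36.

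Other genes of the chain had other orders. ALG3 was highest in SNU-601 and lowest in SNU-216, 0.86 apart (SE 0.0364, adjusted p = 3.1e-08). STT3A had that order too, with SNU-601 above SNU-216 by 0.64 (SE 0.0531, adjusted p = 4e-06), and so did STT3B, with 0.44 (SE 0.0654, adjusted p = 0.00026), although STT3B in SNU-216 and KATO-III did not differ beyond their spread (-0.12, adjusted p = 0.155). In CD133- cells the STT3A arrays of SNU-601 overlapped those of KATO-III. ALG1 was lowest in SNU-601, with a log2 difference from SNU-216 of -0.93 (SE 0.061, adjusted p = 7.21e-07), and SNU-216 minus KATO-III was 0.15 (SE 0.061), which did not pass after adjustment (adjusted p = 0.0587). The mean ALG1 of SNU-216 was below that of KATO-III in CD133+ cells (491 against 520) and above it in CD133- cells (633 against 486). ALG2 was highest in KATO-III, with SNU-216 at -0.95 against it (SE 0.122, adjusted p = 9.52e-05). ALG8, which was not tested, differed from KATO-III by 0.12 in SNU-216 and -0.02 in SNU-601 (SE 0.0358 in each). A small spread between lines raises the signal-to-noise ratio by which ALG8 was chosen, so its gap between lines is not ranked against those of the other genes.

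**Figure D3:**
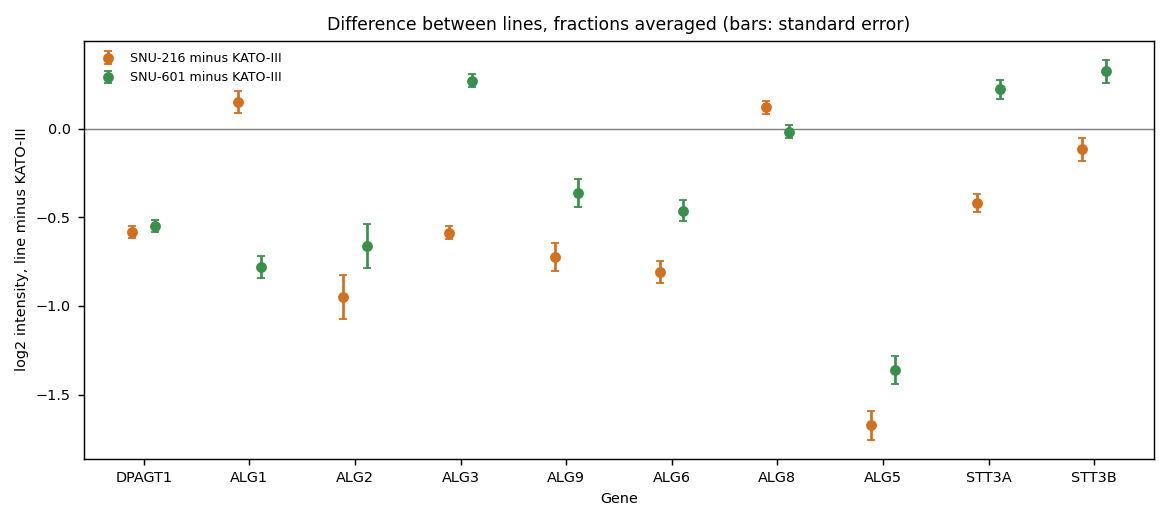
log2 intensity of SNU-216 (orange) and SNU-601 (green) minus KATO-III (vertical axis) for the 10 genes (horizontal axis), with the fractions averaged and bars of 1 standard error. ALG5 lies at -1.67 and -1.36, and ALG8 at 0.12 and -0.02.

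The wider pathway was taken as 6 lists of 60 genes, ordered from the supply of dolichol phosphate to the trimming of the glycan after transfer. Of these, 56 were tested beside ALG8. SRD5A3 and TUSC3 exceeded the floor on fewer than 2 arrays, and OST4 had no row. Over all lines 2 of the 56 were called, STT3B and OSTC, both subunits of the oligosaccharyltransferase and both higher in CD133+ cells, and none was lower, beside 2.62% and 2.11% of all genes tested. OSTC, a small subunit of the complexes that hold STT3A, read 5889 and 5639 in CD133+ against 4789.8 and 4803 in CD133- arrays of KATO-III, 4743 and 4672 against 3840.2 and 3929 in SNU-216, and 6544 and 6497 against 5921 and 6156 in SNU-601. Its fractions did not overlap within any line. The log2 difference of OSTC was 0.22 over all lines (SE 0.044, adjusted p = 0.0245). That call was lost without any 1 of the 4 KATO-III arrays, SNU-216 CD133+ replicate 1 or SNU-216 CD133- replicate 1 (adjusted p from 0.0503 to 0.0643). It was lost too without the mean-variance trend (0.0677), when populations were a random block (0.232) and when arrays were averaged (0.796). With the random block 1 of all genes tested was called, and with averaged arrays 0 were.

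Within lines the calls went both ways. Up to 2 called genes in each direction were taken from every list and line, by size. Of 17 such genes in KATO-III 13 kept their call without each array in turn, of 18 in SNU-216 11 did, and of 9 in SNU-601 2 did. Those that kept it are described here, and UAP1, GMPPA and NGLY1 in KATO-III, DHDDS, DPM2, KRTCAP2 and PRKCSH in SNU-216, and DHDDS, PMM2, GFPT1, UGGT2, MAN1B1 and MLEC in SNU-601 lost it without at least 1 array, as did ALG1, ALG2, ALG5, MAGT1 and RPN2 in the lines where that is given. In KATO-III 13 of the 56 were higher in CD133+ cells and 12 lower, in SNU-216 18 and 11, and in SNU-601 6 and 4. These are set beside 18.7% and 20.6%, 14.6% and 14.0%, and 8.59% and 7.78% of all genes tested. Several of the counts rested on 1 array. In KATO-III 8 were higher without CD133+ replicate 1. In SNU-216 7, 5, 6 and 6 were lower without CD133+ replicate 1, CD133+ replicate 2, CD133- replicate 1 and CD133- replicate 2. In SNU-601 1 was higher without CD133+ replicate 1 and 2 without CD133- replicate 2, and 2 were lower without either CD133+ array. The median log2 difference of the 56 was -0.06, 0.09 and 0.03 in these lines, beside a median of 0.00 over all genes in each. The oligosaccharyltransferase list had 4 of 10 higher and 3 lower in KATO-III, 6 higher and 1 lower in SNU-216, and none called in either direction in SNU-601, beside 18.7% and 20.6%, 14.6% and 14.0%, and 8.59% and 7.78% of all genes tested. Several of these calls, in KATO-III and in SNU-216, were lost when 1 array was left out. RPN2, which encodes the subunit ribophorin II, was higher in the CD133+ arrays from KATO-III (0.74, SE 0.112, adjusted p = 0.000804) and in SNU-216 (0.55, adjusted p = 0.00624, or 0.0551 without SNU-216 CD133+ replicate 1). KRTCAP2, a subunit of the STT3A complexes, was lower in KATO-III (-0.39, SE 0.0611, adjusted p = 0.000977). MAGT1, a thiol oxidoreductase subunit of the STT3B complexes, was also lower there (-0.52, adjusted p = 0.0115), a call lost without KATO-III CD133+ replicate 2, CD133- replicate 1 or CD133- replicate 2 (adjusted p up to 0.103).

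Among the 7 genes of the cytosolic-face list, 4 were lower and 1 higher in CD133+ cells of SNU-216, where 14.0% and 14.6% of all genes were. ALG14, which anchors the enzyme that adds the second N-acetylglucosamine, was the higher one (0.65, SE 0.103, adjusted p = 0.00166). In KATO-III the higher one was ALG13, the catalytic partner of ALG14 (0.33, SE 0.0541, adjusted p = 0.00136). ALG13 was lower in SNU-216 (-0.18, adjusted p = 0.0323), a call lost without SNU-216 CD133+ replicate 1 (0.16) or CD133- replicate 1 (0.161). Of the luminal list, ALG10 was higher in SNU-216 (1.02, SE 0.12, adjusted p = 0.000342) and ALG10B in KATO-III (0.70, SE 0.139, adjusted p = 0.00378). Both encode transferases of the last glucose and are near-identical copies, so which copy a probe measured is uncertain.

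The sugar donor list had 5 of 15 genes higher and 2 lower in KATO-III, 5 and 3 in SNU-216, and 2 and 1 in SNU-601. The shares of all genes tested were 18.7% and 20.6%, 14.6% and 14.0%, and 8.59% and 7.78%. PMM1, a phosphomannomutase, had the largest difference of all 56 genes, lower in CD133+ cells of KATO-III (-1.73, SE 0.109, adjusted p = 6.01e-06). In SNU-216 PGM3, an enzyme on the way to UDP-N-acetylglucosamine, was higher (0.72, SE 0.0819, adjusted p = 0.000298), and so was UGP2, which makes the UDP-glucose that ALG5 uses (0.68, SE 0.0647, adjusted p = 0.000113). DPM3, a subunit of the dolichol phosphate mannose synthase, was lower there (-0.34, SE 0.0698, adjusted p = 0.00619). In the dolichol supply list, DOLPP1, which recycles dolichol pyrophosphate, was lower in KATO-III (-0.63, SE 0.0736, adjusted p = 0.000174).

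After transfer, glucosidases, mannosidases and lectins read the glycan. Of the 14 genes in this list, KATO-III had 1 higher and 4 lower in its CD133+ fraction, while SNU-216 and SNU-601 each had 3 higher and 2 lower. Over all genes tested 18.7% were higher and 20.6% lower in KATO-III, 14.6% and 14.0% in SNU-216, and 8.59% and 7.78% in SNU-601. EDEM1, a mannosidase-like protein that directs misfolded glycoproteins to degradation, was lower in KATO-III (-0.73, SE 0.0554, adjusted p = 1.57e-05), higher in SNU-216 (0.34, adjusted p = 0.00181) and lower in SNU-601 (-0.33, adjusted p = 0.00491). MAN1B1, an alpha-mannosidase of the same route, was lower in KATO-III (-0.91, SE 0.0749, adjusted p = 2.6e-05) and higher in SNU-601 (0.31, adjusted p = 0.0228), the latter call lost without SNU-601 CD133+ replicate 1 (0.129) or CD133- replicate 1 (0.133). MOGS, the glucosidase that removes the outermost glucose, was lower in SNU-216 (-0.41, SE 0.0853, adjusted p = 0.00636), and MLEC, the lectin malectin that binds glycans with glucose left on, was higher there (0.27, SE 0.0458, adjusted p = 0.00244). MLEC was lower in KATO-III (-0.45, adjusted p = 8.51e-05) and in SNU-601 (-0.23, adjusted p = 0.0102, or 0.0547 without SNU-601 CD133- replicate 2).

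**Figure D4:**
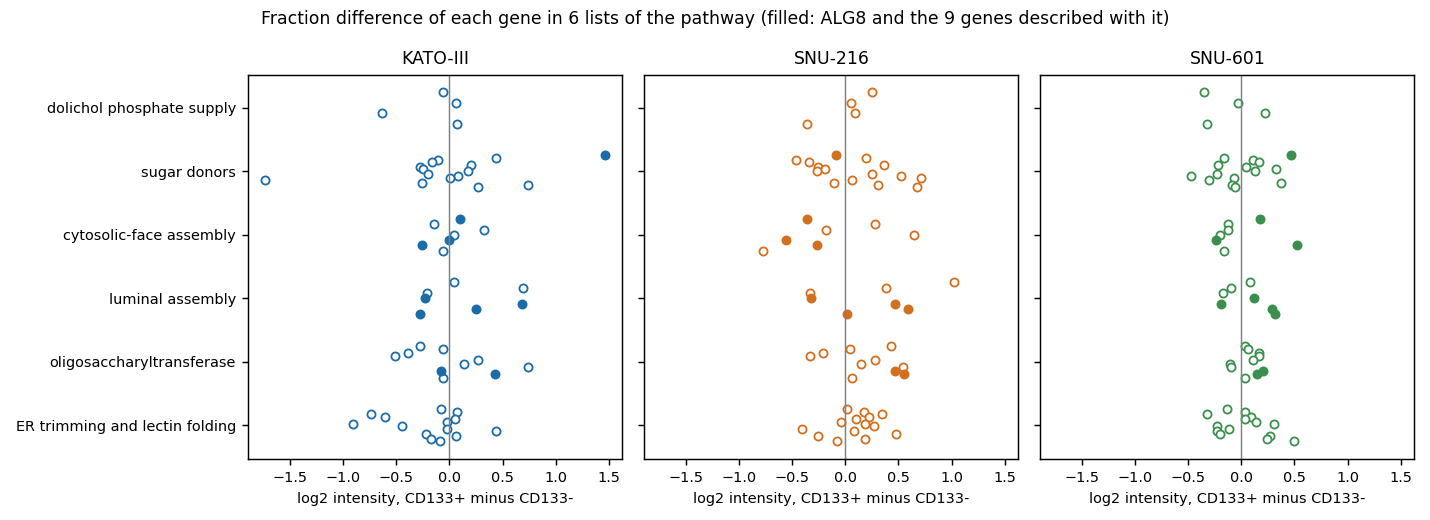
log2 intensity of CD133+ minus CD133- cells (horizontal axes, 1 panel per line) for each gene of 6 pathway lists (vertical axis). Filled points are ALG8 and the 9 genes described with it, open points other genes of the lists, and points within a list are spread vertically only for visibility. Each list has points on both sides of 0 in every line, with PMM1 at -1.73 and ALG5 at 1.47 the extremes of KATO-III.

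The genes whose intensities followed ALG8 most closely over the 12 arrays lay outside the pathway. DCK, which encodes deoxycytidine kinase, had a Pearson correlation on log2 intensities of 0.957 with ALG8, MRPL39, a protein of the mitochondrial ribosome, 0.931, the noncoding transcript NCRNA00120 0.927, C3ORF38 0.900 and GTF2H2B 0.893. GTF2H2B has near-identical copies, so its value is uncertain. PROM1 had a correlation of 0.811 with ALG8 and rank 36 of 20146 genes. STT3B ranked 1450 with 0.470, ahead of the other 8 pathway genes, which lay between -0.49 for ALG2 and 0.19 for ALG6. These values describe the same 12 arrays, which share lines, fractions and the normalization, and ALG8 was selected on the difference between their fractions.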

How the data were processed

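RNA from 6 sorted populations of 3 gastric cancer cell lines was hybridised to 12 single-colour Illumina HT-12 v3 BeadChip arrays. Per the labels and the study's methods, the authors deposited quantile-normalized, background-subtracted linear intensities, 1 value per gene symbol and array; BeadStudio is named in the submitters' processing notes, with no version. Bead counts, detection p-values and probes were not used here, so several probes of a gene could not be compared, and precision is limited by having 2 arrays per population.

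Of 34688 rows, 93 were empty. Intensities, of which 32.1% were at or below 0, were raised to a floor of 32.7 (the size of their 1st percentile) and log2 transformed. Genes that exceeded the floor on 2 or more arrays (20147) entered limma 3.58.1, run in R 4.3.3 with a mean-variance trend and with Benjamini-Hochberg adjustment over all tested genes at 0.05. The comparison over all lines used line and fraction as terms (8 residual degrees of freedom). Comparisons within and between lines and the interaction used the 6 population means (6 residual degrees of freedom). Signal-to-noise ratios used linear intensities as deposited. The floor, an offset, the scaling, the filter, the trend, a replicate block, a random population block, averaged arrays and each array left out were alternatives. The fits were tested on simulated data in which arrays were independent. In the data, the correlation of arrays of a population after line and fraction was 0.641, so that test does not cover the p-values over all lines.

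The gene set, the pathway and marker lists and the tests were chosen with earlier results of these data known. The genes named are the 10 of the set, the genes called over all lines, up to 2 called genes with the largest log2 differences in each direction, list and line, and the 5 genes most correlated with ALG8; the remaining list genes are given as counts. Symbols were matched to the rows as deposited, with older symbols where only these had a row. CD133+ and CD133- arrays of a line with the same replicate number did not deviate together from their population means. The correlations of deviations were 0.0261, 0.0129 and -0.00648 in KATO-III, SNU-216 and SNU-601, so the numbers were not used as pairs. Figures were drawn with matplotlib 3.10.9.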

Additional observations from a re-analysis of the deposited data

Results flagged for a closer look

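In 7 of the 9 genes other than ALG8, the difference between CD133+ and CD133- cells was unequal among the 3 lines by the limma interaction F-test. Its adjusted p was 4.88e-05 for DPAGT1, 0.000248 for ALG5, 0.00114 for ALG6, 0.00245 for ALG3, 0.00762 for STT3A, 0.0112 for ALG1 and 0.0357 for ALG9. DPAGT1 was lower in CD133+ cells of KATO-III and SNU-216 and higher in those of SNU-601, with all 4 arrays of each line separated by fraction. The log2 difference of ALG5 was 1.47 in KATO-III, 0.47 in SNU-601 and -0.09 in SNU-216. An unequal difference was called in 44.4% of all genes tested.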

How the results depend on the processing

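The count of genes other than ALG8 called over all lines fell from 1 higher (STT3B) to 0 with no filter on dim genes (STT3B adjusted p = 0.0583), with arrays averaged and with a random population block, and was 0 to 1 without each array in turn; the lower count was 0 throughout. In SNU-601 the higher count of 2 became 4 among genes above the floor on all 12 arrays and 1 with no filter, and 1 to 3 without each array, with 0 to 1 lower. Without each array the counts were 3 to 3 higher and 2 to 3 lower in KATO-III, 3 to 3 and 2 to 4 in SNU-216, 6 to 7 for the interaction and 9 to 9 between lines. The ALG8 difference over all lines was then 0.34 to 0.41 and its signal-to-noise ratio 1.66 to 1.96. With the replicate number as a block, 1 gene of the 9 was still called over all lines (STT3B, adjusted p = 0.041), and the STT3B interaction passed (0.0375). Among all genes tested, calls over all lines fell from 953 to 0 with arrays averaged and to 1 with a random population block. Small differences that did not pass turned sign under other scalings: DPAGT1 over all lines with an offset of 100 (-0.000173), and ALG2 in KATO-III with that offset (0.000529), with arrays centred on their medians (0.0372) and with quantile normalization repeated (0.0341). Without each array in turn the differences over all lines ranged from -0.0733 to 0.0433 for DPAGT1, -0.0807 to 0.0157 for ALG1 and -0.0521 to 0.0871 for ALG9, and within lines from -0.229 to 0.217 for ALG2 in KATO-III, -0.201 to 0.0400 for STT3A in KATO-III and -0.0766 to 0.102 for ALG9 in SNU-216. With no filter 58 pathway genes were tested, of which 2 were called higher and 3 lower in SNU-601, against 6 and 4 of 56, and 7 were lower in SNU-216, against 11.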
